A study of Mus musculus with 17 samples.

Results

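Tuft cell genes were examined in RNA from mouse colon. The 10 genes were given by name (Trpm5, Gnat3, Pou2f3, Gfi1b, Dclk1, Avil, Sh2d6, Alox5, Hpgds and Ltc4s) and were found by their symbols. All 10 were present among the 23719 entries of the count table, and 9 of them had enough counts to be tested. Colons of 9 Control mice, which drank water, were compared with colons of 8 mice of the Gulf War illness (GWI) model. The GWI mice received pyridostigmine bromide (PB), an inhibitor of acetylcholinesterase, at 2 mg/kg in drinking water for 7 days. The series text gives 21 days of recovery and the treatment label says that mice were kept until day 30. All mice were C57BL/6 males of 32 to 34 weeks. The comparison asks whether transcripts of this epithelial cell type differed in the colon after PB had been withdrawn.

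Tuft cells are rare chemosensory cells of the gut epithelium that use a taste-type signalling cascade to detect luminal metabolites. They make acetylcholine through choline acetyltransferase, and in the small intestine they release interleukin 25, which drives type 2 immune responses to parasites. They also make leukotrienes and prostaglandins. Several of their genes are also used by other cells of the colon wall, such as neurons and macrophages.

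Total counts per mouse ranged from 16293537 to 20741212. The counts carry no molecular identifiers, so the technical noise can exceed counting error. Levels are given as CPM, counts relative to each library size after scaling by TMM factors. A pair of Control libraries stood apart for these genes. Control replicate 1 had the highest Control level for 8 of the 10 genes, and Control replicate 9 had the lowest for 6 of the 10. In Control replicate 9 the 10 most counted genes took 23.1% of all counts, against 9.72% to 17.3% in the other 16 mice, and its TMM factor was 0.799. For the tuft cell genes, values without Control replicate 1 are given beside those with all mice, and the range over every single mouse left out follows after them.

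Of the 9 tested genes, 0 were called higher and 1, Hpgds, was called lower in the GWI mice, by the quasi-likelihood test of edgeR at an adjusted p under 0.05 (Benjamini-Hochberg, over all genes). Among all 14146 genes tested, 13.4% were called higher and 13.5% lower (1889 and 1903 genes). At an unadjusted p under 0.05, 1 tuft cell gene was higher and 1 was lower, and the share of all genes at that threshold is not given here. The DESeq2 Wald test also called 0 higher and 1 lower, and its share of all genes is not given here. With an epithelium score or a replicate block in the model, both described below, 0 were called lower. Over all genes, 1033 and 826 were called lower in these fits. Limma-voom with sample quality weights called 5 higher (Trpm5, Gnat3, Sh2d6, Alox5 and Ltc4s) and 1 lower (Hpgds). Limma-voom called more genes throughout, 27.6% of all genes higher and 29.5% lower. Without Control replicate 1, 3 genes were called higher (Trpm5, Sh2d6 and Alox5) and 1 lower (Hpgds), where 17.9% of all genes were called higher and 16.3% lower. That mouse was singled out by its high levels of these same genes, so the 3 calls are not independent of that choice. Without Control replicate 9 in its place, 0 genes were called higher and 1 lower (Hpgds), where 16.1% of all genes were called higher and 15.8% lower. Without Control replicates 1, 6, 7 and 9, which also leaves out replicate 1, 3 were called higher (Trpm5, Gnat3 and Alox5) and 1 lower (Hpgds), where 18.2% of all genes were called higher and 16.4% lower. Replicate 1 was the highest Control mouse for Trpm5, Gnat3 and Alox5, so these higher calls are not independent of the choice either. The median log2 fold change of the 9 genes was 0.27, beside -0.056 over all tested genes. With upper-quartile factors in place of TMM, the calls over all genes split into 1214 higher and 2992 lower. In bulk tissue, fewer cells of a type and less RNA per cell cannot be told apart.

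**Figure D1:**
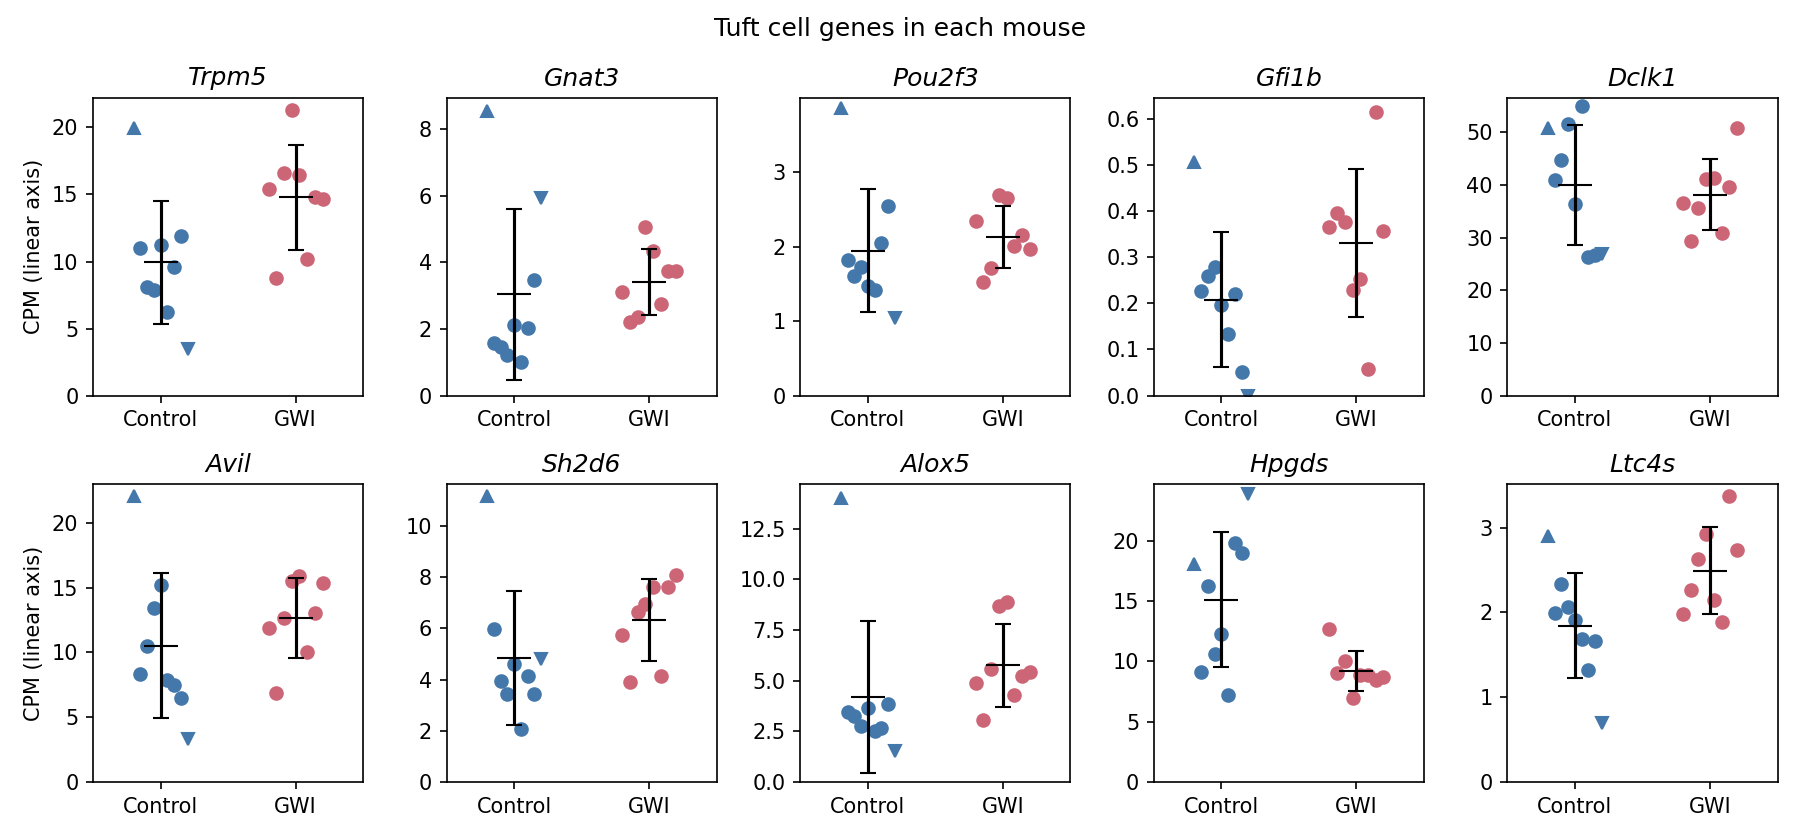
Level of each of the 10 tuft cell genes in CPM (linear vertical axes from 0) in 9 Control and 8 GWI mice, with 1 point per mouse and bars for the mean and SD. Upward triangles mark Control replicate 1 and downward triangles Control replicate 9; the Hpgds points of all 8 GWI mice lie below the Control median of 16.2 CPM.

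Trpm5 encodes the cation channel that depolarises tuft cells after taste-type receptors are engaged (ENSMUSG00000009246.14, chr7:143069153-143094642, minus strand, GRCm38). Its level was 3.48 CPM at the lowest, 9.60 at the median and 20.0 at the highest in Control, and 8.78, 15.1 and 21.3 CPM in GWI. Of the 8 GWI mice, 7 lay above the Control median, but Control replicate 1 lay among the highest GWI mice and the groups overlapped. The log2 fold change was 0.57 (SE 0.25, 95% confidence interval 0.045 to 1.10, edgeR adjusted p 0.0951). Without Control replicate 1 it was 0.77 with an edgeR adjusted p of 0.0134. Exons of Trpm5 overlap those of Tssc4 on the opposite strand, and the strand setting of the counting is not given in the sources used here, so its level is uncertain to that extent.

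Gnat3 encodes gustducin, the G protein alpha subunit that couples taste receptors to the cascade (ENSMUSG00000028777.8, chr5:17962549-18019834, plus strand). Its lowest, median and highest levels were 1.02, 2.04 and 8.53 CPM in Control and 2.21, 3.43 and 5.05 CPM in GWI. All 8 GWI mice lay above the Control median, and the highest Control mice, replicates 1 and 9, lay above every GWI mouse. For Gnat3 the log2 fold change was 0.18 (SE 0.38, edgeR adjusted p 0.745), and 0.56 (edgeR adjusted p 0.170) without Control replicate 1. Its direction depended on the model. It was -0.12 and -0.39 with an epithelium score or a muscle-against-epithelium score, but 0.87 in limma-voom (adjusted p 0.00534). Without Control replicates 1, 6, 7 and 9 it was 0.77 (edgeR adjusted p 0.0418). That set leaves out the highest Control mice for Gnat3, replicates 1 and 9, so this call is not independent of the choice.

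Pou2f3 encodes the POU-domain transcription factor without which tuft cells do not form (ENSMUSG00000032015.16, chr9:43123939-43210369, minus strand). It was the least abundant of the tested genes per kilobase, with 1.05, 1.73 and 3.85 CPM as lowest, median and highest Control levels and 1.53, 2.08 and 2.70 CPM in GWI. All GWI levels lay within the Control range. The difference was 0.13 on the log2 scale (SE 0.22, edgeR adjusted p 0.676) and took the opposite sign, -0.065, with the epithelium score in the model. Without Control replicate 1 it was 0.32 (edgeR adjusted p 0.184). Gfi1b, a zinc-finger repressor found in tuft cells and in blood cell lineages (ENSMUSG00000026815.14, chr2:28609450-28621982, minus strand), failed the filter. It had 0 to 8 counts in Control mice and 1 to 10 in GWI mice, too few to be tested with the filter. With no filter on low counts Gfi1b was tested and was not called.

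Dclk1 encodes a microtubule-associated kinase widely used as a tuft cell marker and also expressed in neurons (ENSMUSG00000027797.15, chr3:55242364-55539068, plus strand). Its lowest, median and highest levels were 26.3, 41.0 and 55.1 CPM in Control and 29.3, 38.0 and 50.7 CPM in GWI. Every GWI level lay within the Control range, and Control replicates 7, 8 and 9 were the lowest of all mice. Between the groups the log2 fold change was -0.067 (SE 0.16, 95% confidence interval -0.41 to 0.27, edgeR adjusted p 0.774). With the muscle-against-epithelium score in the model it was 0.52 with an edgeR adjusted p of 0.0329, without Control replicate 6 it was 0.0020, and without Control replicate 1 it was -0.014.

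Avil encodes advillin, an actin-binding protein of the tuft cell brush and of sensory neurons (ENSMUSG00000025432.11, chr10:127000709-127020994, plus strand). Its levels ran from 3.35 over a median of 8.30 to 22.0 CPM in Control and from 6.85 over 12.9 to 15.9 CPM in GWI. The spread was widest in Control, where replicate 1 was highest and replicate 9 lowest. This gave a log2 fold change of 0.27 (SE 0.28, edgeR adjusted p 0.480), and 0.48 (edgeR adjusted p 0.138) without Control replicate 1.

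Sh2d6 encodes an SH2-domain adaptor protein (ENSMUSG00000052631.15, chr6:72513641-72521707, minus strand). Its lowest, median and highest levels were 2.08, 4.14 and 11.2 CPM in Control and 3.91, 6.80 and 8.09 CPM in GWI. Apart from Control replicate 1, the Control mice reached at most 5.97 CPM, and 6 of 8 GWI mice lay above the Control median. GWI exceeded Control by a log2 fold change of 0.39 (SE 0.26, edgeR adjusted p 0.265) with all mice and 0.66 (edgeR adjusted p 0.0188) without Control replicate 1.

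Alox5 encodes 5-lipoxygenase, which starts leukotriene synthesis from arachidonic acid (ENSMUSG00000025701.12, chr6:116410077-116461178, minus strand). Its lowest, median and highest levels were 1.53, 3.27 and 14.0 CPM in Control and 3.06, 5.31 and 8.89 CPM in GWI. Control replicate 1 held 222 counts of Alox5 and the next Control mouse 3.84 CPM, while 7 of 8 GWI mice lay above the Control median. GWI against Control, the log2 fold change was 0.46 (SE 0.35, edgeR adjusted p 0.336) with all mice and 0.96 (edgeR adjusted p 0.00380) without Control replicate 1.

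Ltc4s encodes leukotriene C4 synthase, which joins glutathione to leukotriene A4 (ENSMUSG00000020377.15, chr11:50236461-50238616, minus strand). Its lowest, median and highest levels were 0.697, 1.91 and 2.91 CPM in Control and 1.89, 2.45 and 3.38 CPM in GWI. Of the 8 GWI mice, 7 lay above the Control median and 2 above every Control mouse. Its log2 fold change was 0.43 (SE 0.21, 95% confidence interval -0.017 to 0.88, edgeR adjusted p 0.135), and 0.54 (edgeR adjusted p 0.0544) without Control replicate 1. In limma-voom it was 0.36 (adjusted p 0.0472).

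Hpgds encodes the hematopoietic prostaglandin D synthase, which makes prostaglandin D2 in tuft cells and in immune cells (ENSMUSG00000029919.5, chr6:65117293-65144908, minus strand). Its lowest, median and highest levels were 7.18, 16.2 and 23.8 CPM in Control and 6.95, 8.86 and 12.7 CPM in GWI. All 8 GWI mice lay below the Control median, but 4 of 9 Control mice, replicate 6 the lowest, lay within the GWI range, so the groups overlapped. The highest Control levels were in replicates 9, 7 and 8 (23.8, 19.8 and 18.9 CPM), the mice that were lowest for Dclk1. The log2 fold change was -0.71 (SE 0.21, 95% confidence interval -1.15 to -0.28, edgeR adjusted p 0.0189). Without Control replicate 1 it was -0.66 (edgeR adjusted p 0.0216), and with the epithelium score in the model -0.59 (edgeR adjusted p 0.0874).

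**Figure D2:**
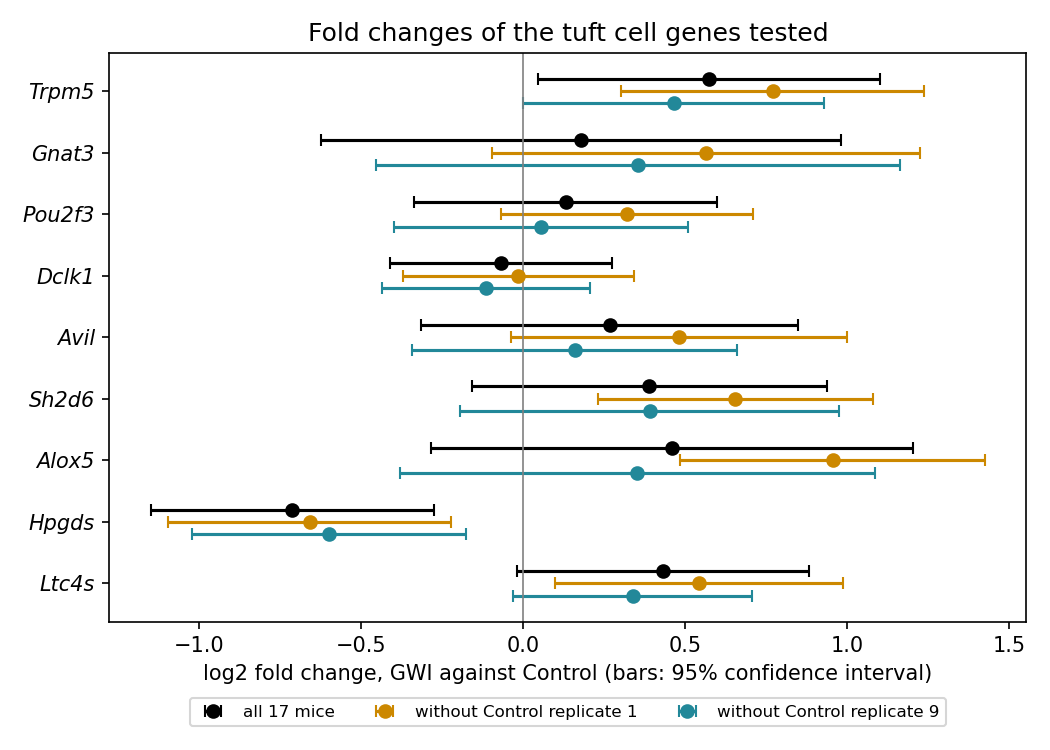
Log2 fold change of GWI against Control (horizontal axis) for the 9 tuft cell genes tested, with bars for the 95% confidence interval, in all 17 mice (black), without Control replicate 1 (orange) and without Control replicate 9 (teal). Hpgds lies below 0 in all 3 fits; Trpm5, Sh2d6 and Alox5 are called higher in the orange fit alone.

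With each of the 17 mice left out in turn, the log2 fold change ran from 0.47 (without Control replicate 9) to 0.77 for Trpm5 and from 0.060 (without Control replicate 6) to 0.56 for Gnat3. Pou2f3 ran from 0.056 to 0.32, Avil from 0.16 to 0.48 and Ltc4s from 0.34 to 0.54, each lowest without Control replicate 9. Sh2d6 ran from 0.29 (without Control replicate 6) to 0.66, and Alox5 from 0.34 (without GWI replicate 5) to 0.96. The upper ends of these 7 ranges were all without Control replicate 1. Without Control replicate 9 the edgeR adjusted p was 0.112 for Trpm5, 0.285 for Sh2d6, 0.449 for Alox5, 0.144 for Ltc4s, 0.627 for Avil, 0.491 for Gnat3, 0.858 for Pou2f3 and 0.583 for Dclk1. Dclk1 ran from -0.14 (without GWI replicate 8) to 0.0020, and Hpgds from -0.80 (without Control replicate 6) to -0.60 (without Control replicate 9, edgeR adjusted p 0.0315).

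Tissue make-up was entered in the model as a score, the mean log2 CPM of epithelium markers, the smooth muscle mean minus that of epithelium, or the mean of small intestine markers. The marker lists themselves differed between the groups. Their median log2 fold changes were 0.39 for colon epithelium, -0.91 for smooth muscle and -2.12 for small intestine. Score and group therefore cannot be fully told apart in these fits, and the values are not effects freed of tissue make-up. With the epithelium score 0 of the 9 genes were called, where 1250 of all 14146 genes were called higher and 1033 lower. At an unadjusted p under 0.05, 0 of the 9 were higher and 1 was lower, with no share of all genes given at that threshold. The log2 fold changes were then 0.42 for Trpm5, 0.064 for Avil, 0.18 for Sh2d6, 0.12 for Alox5, 0.28 for Ltc4s and -0.14 for Dclk1. With the muscle-against-epithelium score, Dclk1 was called higher and Hpgds lower at -1.13 (edgeR adjusted p 0.00841), and at an unadjusted p under 0.05 3 were higher and 1 was lower. The share of all genes called with this score is not given here, so these counts cannot be set against it. Trpm5 was then at 0.67, Avil 0.92, Sh2d6 0.34, Alox5 0.64, Ltc4s 0.72 and Pou2f3 0.12. With the small-intestine score Hpgds was called lower at -0.71 (edgeR adjusted p 0.0448), and the others lay between -0.094 for Dclk1 and 0.52 for Trpm5. Over all genes, 1192 were called lower with that score. The values that these scores turned to the opposite sign are given with each gene.

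Levels between genes were compared per kilobase of exon (RPKM, from CPM and the merged exon length of GENCODE M21), as a mean over 17 mice. Avil was the highest at 3.39 RPKM (SD 1.35) and Sh2d6 followed at 3.28 (SD 1.34). Dclk1 stood at 2.56 (SD 0.606), Gnat3 at 2.36 (SD 1.42) and Ltc4s at 2.12 (SD 0.640). Hpgds at 1.92 (SD 0.795) and Trpm5 at 1.91 (SD 0.758) came next, before Alox5 at 1.20 (SD 0.750), Pou2f3 at 0.659 (SD 0.212) and Gfi1b at 0.145 (SD 0.0878). Most neighbours in this order differed by less than the SD of either gene. The steps from Sh2d6 to Dclk1 and from Alox5 to Pou2f3 exceeded the smaller SD of the pair, and that from Pou2f3 to Gfi1b exceeded both. The order was not the same in each group. In GWI, Sh2d6 (3.75 RPKM) stood above Avil (3.73) and Gnat3 (2.51) above Dclk1 (2.49). In Control, Hpgds (2.35 RPKM) stood above Gnat3 (2.23), Ltc4s (1.82) and Trpm5 (1.55), but in GWI it stood below Trpm5 (1.43 and 2.31 RPKM). Exons of Avil, Dclk1 and Ltc4s also overlap genes on the opposite strand, which leaves their levels uncertain in the same way as for Trpm5.

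Other genes of the taste-type cascade were read from the same fit, and the counts of this and the other lists stand against 13.4% of all genes called higher and 13.5% lower. Of 11 listed genes, 7 were tested, 1 was called higher and 0 lower, and their median log2 fold change was 0.39. Itpr3, the calcium-release channel downstream of Plcb2, rose from a median of 103 CPM in Control to 179 CPM in GWI. Its log2 fold change was 0.84 (SE 0.15, edgeR adjusted p 0.00142) and all 8 GWI mice lay above the Control median; Itpr3 is not particular to tuft cells and its exons overlap Itpr3os. Plcb2, the phospholipase of the cascade, had a log2 fold change of 0.39 (edgeR adjusted p 0.121) at medians of 1.56 and 2.19 CPM, and 0.58 (adjusted p 0.00288) in limma-voom. Sucnr1, the succinate receptor, had a log2 fold change of 0.44 (edgeR adjusted p 0.413), which was -0.22 with the muscle-against-epithelium score and ran from 0.14 to 0.60 with single mice left out. Gng13, the G protein gamma subunit, had 0 to 8 counts and was not tested.

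Among 7 further genes of transcription and lineage, 6 were tested and 1 was called lower. This was Colca2, which encodes a coactivator of Pou2f3, with 18 to 46 counts in Control and 6 to 26 in GWI and a log2 fold change of -0.89 (SE 0.23, edgeR adjusted p 0.0115). It was -0.65 (edgeR adjusted p 0.0898) with the epithelium score and -0.50 (edgeR adjusted p 0.255) with the muscle-against-epithelium score. Its exons overlap 2010007H06Rik on the opposite strand. The symbol 1810046K07Rik was not analysed here. Sox9 was the most abundant of this list.

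Of 15 surface proteins, kinases and adaptors, all 15 were tested, 2 (13.3%) were called higher and 0 lower, with a median log2 fold change of 0.12. That share is close to the 13.4% of all genes. Siglecf (listed as Siglec5), a sialic acid-binding receptor of tuft cells and eosinophils, had 2.75 CPM at the Control median and 4.32 CPM at the GWI median. Its log2 fold change was 0.65 (edgeR adjusted p 0.0473), and it was not called in 13 of 17 fits that left out a mouse. Ptpn6, the phosphatase SHP-1, had a log2 fold change of 0.42 (edgeR adjusted p 0.0155), 0.36 (edgeR adjusted p 0.164) with the muscle-against-epithelium score, and its exons overlap Gm20531. Il17rb, the receptor subunit for interleukin 25, had a log2 fold change of 0.21 (edgeR adjusted p 0.401). It was -0.063 with the muscle-against-epithelium score and 0.52 (adjusted p 0.0138) in limma-voom. Il13ra1 was the most abundant of this list.

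For products of tuft cells, 4 of 6 genes were tested, 1 was called higher and 0 lower; without Chat, 0 of 3 were called. Il25 had 1 to 8 counts per mouse and was not tested. Chat, the acetylcholine-synthesising enzyme, had 1231 to 3754 counts in Control and 2822 to 3983 in GWI, and a log2 fold change of 0.40 (SE 0.13, edgeR adjusted p 0.0336); it was not called in 7 of 17 fits that left out a mouse and in 6 of 12 other alternatives. In the deposited table Il4, Il6 and Chat are the first 3 entries, ahead of an alphabetical order that the other entries keep apart from Ccl5, which follows Ccl6. Slc18a3, the vesicular acetylcholine transporter gene that lies within the Chat locus and was looked at after its values were seen, had 9 to 262 counts in Control and 33 to 184 in GWI. In Control replicates 7 and 8 Slc18a3 had 28 and 20 counts where Chat had 2639 and 2750, and in replicate 1 it had 262 where Chat had 2931. Control replicate 9 had the fewest counts of all 17 mice for both, 9 and 1231. How these 3 entries were placed is not given in the sources used here, so the Chat and Il4 values carry that limit. Ptgs1, cyclooxygenase 1, had a log2 fold change of -0.46 (edgeR adjusted p 0.147), Alox5ap, the 5-lipoxygenase-activating protein, -0.58 (edgeR adjusted p 0.183), and Pla2g4a, the phospholipase that frees arachidonic acid, -0.35 (edgeR adjusted p 0.318). These values moved in both directions with the model. Ptgs1 was -0.77 (edgeR adjusted p 0.0311) with the epithelium score, 0.23 with the muscle-against-epithelium score, -0.68 (adjusted p 0.00132) in limma-voom, -0.62 (edgeR adjusted p 0.0419) without GWI replicate 5 and -0.29 without Control replicate 1. Alox5ap was 0.15 with the muscle-against-epithelium score, -0.79 (adjusted p 0.00190) in limma-voom, -0.86 (edgeR adjusted p 0.0376) without GWI replicate 5 and -0.30 without Control replicate 1. Pla2g4a was 0.18 with the epithelium score, -0.87 (edgeR adjusted p 0.0454) with the muscle-against-epithelium score and 0.087 in limma-voom, and it ran from -0.45 to -0.14 with single mice left out.

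In the type 2 cytokine list, 10 of 19 genes were tested, 2 were called higher and 2 lower, at a median log2 fold change of 0.062. Without Il4, 1 of 9 was called higher at a median of -0.044. Il4 had 20 to 69 counts in Control, and in GWI 30 counts in replicate 7, 880 in replicate 4 and 223 to 285 in the others. Its log2 fold change was 2.58 (edgeR adjusted p 0.000619), with the limit given beside Chat. Stat6, which carries the interleukin 4 and 13 signal, rose by a log2 fold change of 0.40 (edgeR adjusted p 0.00533). Il33, an alarmin of barrier and stromal cells, fell by 0.81 on the log2 scale (edgeR adjusted p 0.00744), and Rora, a factor of type 2 innate lymphoid cells, fell by 0.67 on the log2 scale (edgeR adjusted p 0.00446). With the muscle-against-epithelium score Il33 was -0.11 (edgeR adjusted p 0.714) and Rora -0.41 (edgeR adjusted p 0.109). Il5 had at most 2 counts in any mouse, Il13 at most 1 and Il9 had 0 in all 17. Also of this list, Gata3 (1 to 14 counts) and Klrg1 (0 to 8 counts) were not tested. Il1rl1 had a log2 fold change of 0.17 (edgeR adjusted p 0.736). Which cells the Rora counts came from was not tested.

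Epithelial genes that answer type 2 cytokines were called higher in 1 of 5 tested and lower in 0, with a median log2 fold change of -0.21. Muc2, the main secreted mucin of goblet cells, had a log2 fold change of 0.51 (edgeR adjusted p 0.0465), and was not called in 11 of 17 fits that left out a mouse. Retnlb, a goblet cell protein of type 2 responses, ranged from 55 to 15455 counts in Control and 96 to 9689 in GWI. Its log2 fold change was -0.23 (SE 1.18, edgeR adjusted p 0.898) with all mice and 2.20 (edgeR adjusted p 0.0867) without Control replicate 1. Without Control replicates 1, 6, 7 and 9 it was 3.62 and called higher (edgeR adjusted p 0.0286). Control replicate 1 was the highest Control mouse for Retnlb, so neither value without it is independent of leaving it out. In the leukotriene list, 12 of 14 were tested and 1 was called higher, Lta4h, the leukotriene A4 hydrolase, at 0.30 (edgeR adjusted p 0.0120), with a list median of 0.094; with the muscle-against-epithelium score it was 0.12 (edgeR adjusted p 0.437). Cysltr1, a receptor for cysteinyl leukotrienes, was at -0.46 (edgeR adjusted p 0.112, and 0.0491 without Control replicate 1). Of the prostaglandin D2 list 5 of 8 were tested and Hpgds was the 1 called, with a list median of -0.46; Ptgds had at most 13 counts and Ptgdr2 at most 4.

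Markers of other cells were read in the same way. Of 10 smooth muscle genes 7 were called lower. The list median was -0.91 on the log2 scale, and their summed level was 11584 CPM at the Control median and 5142 CPM at the GWI median. Tagln was at -1.17, Synpo2 at -1.06, Myh11, the most abundant, at -1.10 and Mylk at -0.91. None of these was called with the muscle-against-epithelium score, which holds the muscle list. Tagln was then -0.19 (edgeR adjusted p 0.615), Synpo2 -0.041 (edgeR adjusted p 0.944), Mylk 0.14 (edgeR adjusted p 0.636) and Myh11 0.53 (edgeR adjusted p 0.318). Without Control replicates 1, 6, 7 and 9, Synpo2 was -0.63 and not called (edgeR adjusted p 0.103). Exons of Tagln, 1988 bp in all, overlap those of Gm48529 and Pcsk7 on the opposite strand, by 1349 bp summed over both. This leaves the Tagln level uncertain in the same way as for Trpm5. Of 12 colon epithelium genes 4 were called higher and 0 lower, at a median of 0.39, with Cdh1 at 0.62, Vil1 at 0.64, Cdx2 at 0.38 and Epcam at 0.28. Vil1, Cdx2 and Epcam were not called with the epithelium score, which holds them, nor with the muscle-against-epithelium score. Epcam and Myh11 were not called in 13 and 12 of 17 fits that left out a mouse. Their summed level, led by Car1, was 23825 CPM at the Control median and 26159 CPM at the GWI median. The tuft cell gene values with scores of these markers in the model are given above.

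Of 10 macrophage genes 2 were called lower (Lyz2, the most abundant, at -0.64 and Mrc1 at -0.55), and of 7 fibroblast genes 2 (Dcn at -0.75 and Dpt at -0.76). With the muscle-against-epithelium score none of these 4 was called, with Lyz2 at -0.21 (edgeR adjusted p 0.561), Mrc1 at -0.12 (edgeR adjusted p 0.727), Dcn at -0.079 (edgeR adjusted p 0.808) and Dpt at 0.15 (edgeR adjusted p 0.530). Mrc1 was also not called in 5 of 17 fits that left out a mouse and Synpo2, of the muscle list, in 5 of 17. The summed macrophage level was 130 CPM at the Control median and 82.7 CPM at the GWI median; that of fibroblast genes, led by Col3a1, was 736 and 522 CPM. Of 10 neuron genes 1 was called lower, Nefl at -0.88, with a list median of -0.58 and not called in 11 of 17 fits that left out a mouse, and the summed level, led by Uchl1, was 276 and 189 CPM. Exons of Nefl, 3380 bp in all, overlap those of Nefm on the opposite strand by 1108 bp, so its level is uncertain to that extent. Of 7 goblet genes, led by Muc2, 1 was called higher at summed medians of 14130 and 18142 CPM, and of 8 enteroendocrine genes, led by Chgb, 0 were called at 623 and 721 CPM.

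Mast cells and eosinophils are further sources of these eicosanoid enzymes. Of the mast cell list, Tpsb2 had 3 to 20 counts per mouse, Hdc 1 to 9 and Ms4a2 0 to 7. Cpa3, Cma1 and Mcpt4 had at most 5 counts in any mouse and Tpsab1 and Fcer1a at most 1, and 2 of 10 mast cell genes were tested, led by Kit, which interstitial cells of Cajal also express. Of 7 markers of eosinophils and basophils, 1 was tested, Siglecf, with 30 to 125 counts and called higher as given above, and the other 6, Prg2 and Epx among them, had at most 6 counts in any mouse. Of 10 small intestine genes, 7 were tested and 3 were called lower (Fabp6 at -4.40, Lyz1 at -4.42 and Anpep at -3.10), where Control replicates 6 and 7 held 2677 and 5695 counts of Fabp6 and the other 15 mice at most 133. Without Control replicates 1, 6, 7 and 9, Fabp6 was still called lower at -1.05 (edgeR adjusted p 0.0445), while Lyz1 was -0.70 (edgeR adjusted p 0.115) and Anpep 0.22 (edgeR adjusted p 0.528). With the small-intestine score, which holds these genes, none of the 3 was called, with Fabp6 at -0.73 (edgeR adjusted p 0.0516), Lyz1 at -0.39 (edgeR adjusted p 0.395) and Anpep at 0.41 (edgeR adjusted p 0.296).

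Likeness across mice was measured by correlation of log2 CPM with each group's mean removed, over 108 relations among the 9 genes and with the means of 8 marker lists. The permutation p-values, with mice permuted within groups, were added after the data were seen. By Pearson's r, 14 relations had an adjusted p under 0.05, and 4 had it by Spearman's rho as well. Trpm5 and Alox5 had r = 0.89 (permutation p 7e-05, adjusted 0.00288) and rho = 0.90 (permutation p 1e-05, adjusted 0.00054). Leaving out the 2 mice farthest from the median gave 0.83, and leaving out Control replicate 1 gave 0.88. Within both groups, mice with more Trpm5 had more Alox5 (r = 0.89 in Control and 0.88 in GWI).

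Pou2f3 was related by r to Alox5 (0.88, rho = 0.66, permutation p 8e-05 and 0.00659, adjusted 0.00288 and 0.0712) and to Trpm5 (0.85, rho = 0.72, permutation p 0.00028 and 0.0026, adjusted 0.00605 and 0.0562), and both were 0.66 without the 2 farthest mice. Avil was related by r to Alox5 (0.80, rho = 0.67, permutation p 0.0007 and 0.00615, adjusted 0.0108 and 0.0712), to Ltc4s (0.80, rho = 0.68, permutation p 0.00095 and 0.00491, adjusted 0.0128 and 0.0712) and to Trpm5 (0.79, rho = 0.50, permutation p 0.00157 and 0.0585, adjusted 0.0188 and 0.243). Without the 2 farthest mice these were 0.59, 0.48 and 0.45. The other 5 relations by r alone were Trpm5 with Ltc4s (0.72, adjusted 0.0493), Gnat3 with Sh2d6 (0.71, adjusted 0.0353), Dclk1 with Avil (0.69, adjusted 0.0493) and with Ltc4s (0.65, adjusted 0.0493), and Ltc4s with the neuron mean (0.68, adjusted 0.0388). Without the 2 farthest mice they were 0.23, 0.34, 0.59, 0.54 and 0.48.

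Dclk1 and Avil were related to neuron markers by both measures. Dclk1 and the neuron mean had r = 0.85 (permutation p 0.00039, adjusted 0.00702) and rho = 0.80 (permutation p 0.00094, adjusted 0.0254), and 0.75 without the 2 farthest mice. The r was 0.86 within Control and 0.81 within GWI. Dclk1 and the smooth muscle mean had r = 0.83 (permutation p 0.0002, adjusted 0.0054) and rho = 0.81 (permutation p 0.00027, adjusted 0.00972), and 0.76 without the 2 farthest, but 0.52 within GWI. Avil and the neuron mean had r = 0.85 (permutation p 3e-05, adjusted 0.00288) and rho = 0.92 (permutation p 1e-05, adjusted 0.00054), and 0.85 without the 2 farthest. In permutations 1e-05 is the smallest p they can give. Within GWI the r to the neuron mean was 0.82 for Alox5, 0.78 for Sh2d6, 0.73 for Gnat3 and 0.60 for Trpm5. It was 0.59 for Pou2f3, 0.21 for Ltc4s and -0.35 for Hpgds. Within Control, in the same order, the values were 0.53, 0.27, -0.18, 0.40, 0.20, 0.79 and -0.48. Within GWI the relation was thus not particular to Dclk1 and Avil.

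**Figure D3:**
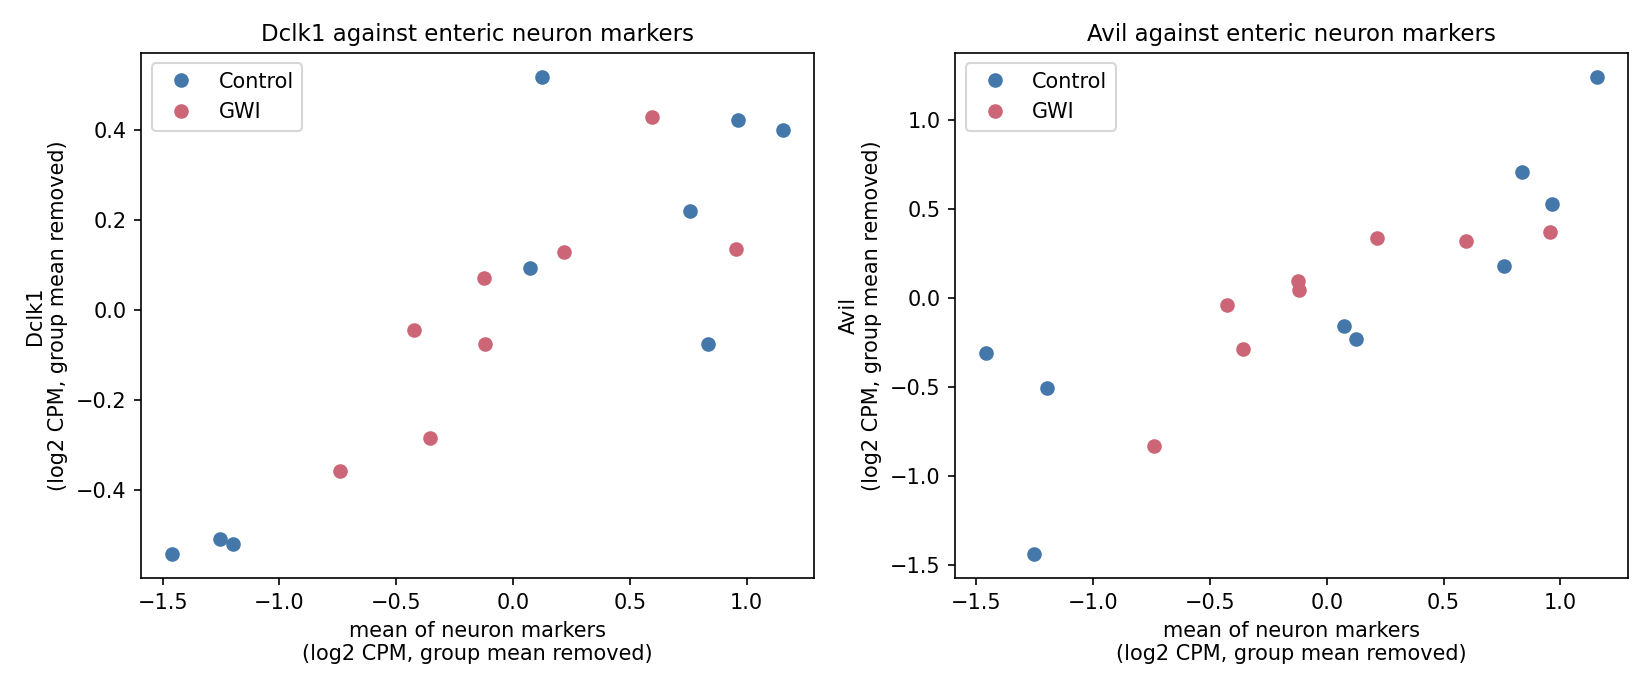
Dclk1 (left) and Avil (right) against the mean of 10 neuron markers, all as log2 CPM with the group mean removed, with 1 point per mouse (9 Control, 8 GWI). Both rise with the neuron markers, with r of 0.85 for Dclk1 and 0.85 for Avil; 3 Control mice lie apart at the low end.

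Hpgds had no relation with an adjusted p under 0.05. Its r to Trpm5 was -0.052 (rho = -0.012, permutation p 0.875 and 0.970, adjusted 0.900 and 0.993), and to Gnat3 0.58 (rho = 0.43, permutation p 0.0585 and 0.134, adjusted 0.207 and 0.400), the latter with opposite signs within the groups, 0.74 in Control and -0.52 in GWI. Its r was negative to the smooth muscle mean at -0.63 (rho = -0.58, permutation p 0.0210 and 0.0312, adjusted 0.113 and 0.187) and to Dclk1 at -0.61 (rho = -0.58, permutation p 0.0316 and 0.0380, adjusted 0.137 and 0.205). With the macrophage mean its r was -0.15 (rho = -0.18, permutation p 0.638 and 0.535, adjusted 0.774 and 0.746). The 10 tested genes most like the mean of Trpm5, Pou2f3, Avil and Sh2d6, those 4 left aside, were Alox5 (r = 0.95), Tmem37 (0.94), Spib (0.92), Bsdc1 (0.92), Nr1h2 (0.91), Pfkp (0.89), Ap3d1 (0.88), Rgs3 (0.88), Mtmr7 (0.88) and Epn3 (0.88), over 17 mice and as a description. Spib, an ETS-family transcription factor known from tuft cells, was on the list of lineage genes. Without Control replicate 1, 5 of the 10 were again among the 10 most like. Among Control mice, replicate 1 was the highest for all 10 of these genes and replicate 9 the lowest for all but Mtmr7. The list may therefore rest largely on those libraries, and a list without Control replicate 9 is not given here.

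The octamer ATGCAAAT is the sequence that POU-domain factors such as Pou2f3 bind, and it was searched on both strands in RefSeq promoter windows (250 bases before to 50 after each start, GRCm38.p6). It lay in 570 of 32817 windows (1.74%). Of the tuft cell genes, 9 had a window, 10 windows in all, and 1 window held the octamer, that of Hpgds. The match is shown as the 30 bases around it, chr6:65144886-65144915 on the minus strand, with the octamer in capitals. It starts 174 bases before the RefSeq start and 4 bases inside the first exon of the GENCODE model, and it is a description of letters, not a shown binding site.
Hpgds: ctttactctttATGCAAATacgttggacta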

How the data were processed

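RNA from the colon of 17 mice was sequenced as poly(A)-selected libraries. The authors used Trimmomatic 0.36 for trimming and STAR 2.5.2b for alignment to GRCm38, counted unique gene hits and deposited raw counts, whole numbers without normalization. The annotation release and strand setting are not given in the sources used here. The table has 23719 entries, of which 48 repeat a symbol and stayed separate, and 0 columns lacked a sample. Counts were filtered with filterByExpr, scaled by TMM and tested in edgeR 4.0.16 (glmQLFit robust, glmQLFTest) in R 4.3.3 with group as the only term, adjusted over all 14146 genes. Alternatives used DESeq2 1.42.0 and limma 3.58.1, other scalings, filters, covariates, a replicate block and mice left out. Figures and correlations used Python 3.11.15, a prior count of 2 and 100000 permutations. Steps were tested on simulated data. Named genes were all 10 members, up to 4 called genes per list, a list of genes always named, the 10 most alike and each list's most abundant gene. The members and lists were chosen with earlier results of these data known. Areg and 1810046K07Rik were not analysed here. Gene coordinates are from GENCODE M21.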

Additional observations from a re-analysis of the deposited data

Results flagged for a closer look

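In 38 sets of values (10 genes, 8 marker lists and the total count in each group), 3 values lay far from the rest of their group, where chance gives this in about 1 in 20 groups of unrelated values. All 3 came from a single mouse, Control replicate 1, and values of the same mouse are not independent of each other. Its Sh2d6 level was 11.2 CPM against 5.97 CPM in the next Control mouse. Its Alox5 level was 14.0 CPM against 3.84 CPM. Its summed goblet markers were 20633 CPM against 16005 CPM. The cause was not tested.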

How the results depend on the processing

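Over 44 genes, 1072 of 1274 recomputed log2 fold changes kept their direction and side of the threshold. The call was lost in 165 and gained in 22, and 23 changed sign, of which 6 also lost and 2 also gained the call. The count of tuft cell genes called higher was 0, where 13.4% of all genes were called higher. It became 5 with limma-voom, where 27.6% of all genes were called higher. Without Control replicates 1, 6, 7 and 9 it was 3, where 18.2% of all genes were called higher. With the muscle-against-epithelium score it was 1, and the share of all genes is not given here. Leaving out single mice gave 0 to 3. The count called lower was 1, became 0 with the epithelium score, and was 1 with every single mouse left out. Over all genes, higher calls became 1214 with upper-quartile factors, 3901 with limma-voom and 1250 with the epithelium score, and 1472 to 2523 without single mice. Lower calls became 2992, 4175 and 1033 under those settings, 1192 with the small-intestine score, and 1309 to 2295 without single mice. Signs changed with the muscle-against-epithelium score for Gnat3 (-0.39), Dclk1 (0.52), Nefl (0.074), Mylk (0.14), Myh11 (0.53), Dpt (0.15), Il17rb (-0.063), Ptgs1 (0.23), Alox5ap (0.15), Retnlb (0.44) and Sucnr1 (-0.22). They changed with the epithelium score for Gnat3 (-0.12), Pou2f3 (-0.065) and Pla2g4a (0.18), with limma-voom for Pla2g4a (0.087) and Retnlb (1.69), with the DESeq2 Wald test for Retnlb (0.59), and with the small-intestine score for Anpep (0.41). Without Control replicates 1, 6, 7 and 9 they changed for Anpep (0.22) and Retnlb (3.62, called higher), and without single mice Retnlb ran from -1.73 to 2.20 and Dclk1 from -0.14 to 0.0020. The causes were not tested.

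With the replicate number as a replicate block, 0 tuft cell genes were called lower (Hpgds -0.54, adjusted p 0.0572 in edgeR), lower calls over all genes fell to 826 and Retnlb was at 1.40. The deviations of same-numbered mice had r from -0.51 to 0.11. Differently numbered mice were not compared, so these values cannot show whether the numbers mark a pairing.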
